A study of Mus musculus with 22 samples.

Results

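Glucose breakdown and the response to low oxygen were followed through 35 genes, 23 of glycolysis and 12 of the hypoxia response, in cultured collecting duct cells of the mouse kidney. The genes were chosen by symbol, and all 35 were found among the 54514 entries of the expression table. The cells were mpkCCD cells, an immortalised line from the cortical collecting duct that makes the water channel aquaporin-2 (Aqp2) when given dDAVP, a stable analogue of vasopressin. The study made 22 RNA-seq libraries from these cells in 10 groups. WT mpkCCD cells, which carry no reporter, were taken without dDAVP (the vehicle group, 3 libraries) or with dDAVP (3 libraries). The other 16 libraries came from the GFP reporter cells C1, C11, C43 and C50, each treated here as 1 clone, which is a single isolate and not a sample of many. Each clone gave GFP-negative and GFP-positive cells, with 2 libraries of each, and all of these cells had received dDAVP. The growth protocol covers more than 1 dose and time of dDAVP and the labels do not say which a library had. How the reporter was built, how the fractions were separated and whether replicates were separate cultures are not given in the sources used here, so p-values measure the spread between these libraries, which may be technical. All groups shared the serum-free medium with dexamethasone, selenite and transferrin.

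Glycolysis turns glucose into pyruvate in the cytosol. The upper steps spend ATP to make triose phosphates, the lower steps from glyceraldehyde-3-phosphate onward return ATP and NADH, and lactate dehydrogenase then regenerates NAD+ by reducing pyruvate to lactate. The hypoxia response runs through the transcription factor HIF-1, whose alpha subunit (Hif1a) is marked for destruction by oxygen-dependent prolyl hydroxylases (Egln1 and Egln3). When oxygen is short the subunit stays, and HIF-1 raises transcription of glucose transporters, glycolytic enzymes and genes for vessel growth, matrix and mitochondrial turnover. Control of Hif1a is largely at the protein, so its mRNA need not follow its activity. In the kidney, collecting ducts run into the poorly oxygenated medulla, where cells rely much on glycolysis.

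HIF-1 binds short sites with the core ACGTG or GCGTG, and the promoters of 8 members whose levels differed in the comparisons that follow are shown to let these letters be seen. They were picked to show windows with ACGTG, and Eno1 and Pkm for comparison without it. Pgk1, Pgam1, P4ha2, Eno1 and Pkm were lower in GFP-positive cells, Pfkfb3 and Bnip3 were higher there, and Ldha was higher with dDAVP. Each sequence is the 250 bases before the RefSeq gene start on the build GRCm38.p6, written 5′ to 3′ on the gene's own strand, with ACGTG or GCGTG on either strand in capitals. The start that these cells use was not measured.
Pgk1: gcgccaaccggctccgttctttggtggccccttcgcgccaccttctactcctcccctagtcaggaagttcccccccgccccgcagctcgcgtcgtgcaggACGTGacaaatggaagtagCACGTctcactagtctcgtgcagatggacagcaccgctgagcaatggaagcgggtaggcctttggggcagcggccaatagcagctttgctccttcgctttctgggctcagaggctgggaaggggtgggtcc
Pgam1: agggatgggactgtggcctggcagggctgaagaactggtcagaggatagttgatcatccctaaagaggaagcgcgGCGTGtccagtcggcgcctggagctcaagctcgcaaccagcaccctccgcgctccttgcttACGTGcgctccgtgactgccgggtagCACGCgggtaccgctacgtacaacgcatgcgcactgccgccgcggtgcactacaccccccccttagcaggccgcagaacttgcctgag
P4ha2: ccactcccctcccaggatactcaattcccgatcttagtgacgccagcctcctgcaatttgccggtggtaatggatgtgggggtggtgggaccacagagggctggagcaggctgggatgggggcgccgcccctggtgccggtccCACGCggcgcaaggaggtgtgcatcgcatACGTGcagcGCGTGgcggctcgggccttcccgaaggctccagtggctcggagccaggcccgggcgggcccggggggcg
Eno1: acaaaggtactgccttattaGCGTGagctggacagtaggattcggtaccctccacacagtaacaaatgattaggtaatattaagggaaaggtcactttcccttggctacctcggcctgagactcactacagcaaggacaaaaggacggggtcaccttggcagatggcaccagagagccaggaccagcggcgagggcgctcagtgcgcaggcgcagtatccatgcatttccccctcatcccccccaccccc
Pkm: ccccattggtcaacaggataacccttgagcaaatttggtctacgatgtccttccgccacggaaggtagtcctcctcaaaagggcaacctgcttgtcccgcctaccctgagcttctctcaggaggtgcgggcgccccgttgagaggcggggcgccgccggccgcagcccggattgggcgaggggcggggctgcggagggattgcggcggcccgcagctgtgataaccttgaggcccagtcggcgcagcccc
Pfkfb3: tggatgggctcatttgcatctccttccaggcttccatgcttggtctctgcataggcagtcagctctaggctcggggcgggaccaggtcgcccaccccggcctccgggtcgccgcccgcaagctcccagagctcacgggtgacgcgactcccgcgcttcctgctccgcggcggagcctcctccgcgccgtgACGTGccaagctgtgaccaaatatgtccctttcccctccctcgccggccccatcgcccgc
Bnip3: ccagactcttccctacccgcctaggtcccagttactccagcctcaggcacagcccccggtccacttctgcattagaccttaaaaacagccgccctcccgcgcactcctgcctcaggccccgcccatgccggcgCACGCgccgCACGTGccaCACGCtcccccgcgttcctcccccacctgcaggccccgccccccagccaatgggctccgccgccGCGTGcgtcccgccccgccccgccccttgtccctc
Ldha: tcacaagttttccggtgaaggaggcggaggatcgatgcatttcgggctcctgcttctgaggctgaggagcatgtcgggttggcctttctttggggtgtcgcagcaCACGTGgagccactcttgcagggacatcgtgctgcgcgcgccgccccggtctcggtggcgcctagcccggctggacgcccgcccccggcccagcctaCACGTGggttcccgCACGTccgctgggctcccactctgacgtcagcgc
The windows lie at chrX:106186850-106187099 (plus strand) for Pgk1, chr19:41911621-41911870 (plus strand) for Pgam1, chr11:54100674-54100923 (plus strand) for P4ha2, chr4:150236458-150236707 (plus strand) for Eno1, chr9:59656326-59656575 (plus strand) for Pkm, chr2:11553930-11554179 (minus strand) for Pfkfb3, chr7:138909507-138909756 (minus strand) for Bnip3 and chr7:46845554-46845803 (plus strand) for Ldha. Of the 34 members with a RefSeq window, 17 held ACGTG (50%), against 22.3% of the windows of genes with a mean of at least 1 TPM and 16.6% of all windows. GCGTG was in 18 of the 34 (52.9%), against 46.9% and 28.2%. ACGTG was in 7 of the 11 windows of members lower in GFP-positive cells, 2 of the 3 windows of members higher there, and 6 of the 17 of members tested and not called. The motif was thus found on both sides of that comparison. Ldha held the motif 5 times counting both strands, the palindrome CACGTG giving 1 match on each strand.

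Values are TPM, transcript shares scaled to gene length and to the same total in every library, so levels of different genes can be compared and sequencing depth cannot be seen. The labels were checked first on Aqp2 and GFP. Aqp2 lay between 64.1 and 74.9 TPM without dDAVP and between 2759 and 3025 with it, from 66.5 to 1680 in GFP-negative and from 2008 to 7254 in GFP-positive libraries. GFP was at most 0.79 TPM in WT libraries, 5.31 to 17.6 in GFP-negative and 1065 to 1567 in GFP-positive ones. Of 13 principal cell markers, 10 averaged at least 1 TPM, while the fibroblast markers, and all but 1 of the endothelial and of the thick limb and distal tubule markers, were below 1 TPM in every library, with summed levels of at most 1.69, 2.10 and 1.90 TPM. Of the intercalated cell markers 2 of 9 averaged at least 1 TPM, of the proximal tubule markers 1 of 7 and of the leukocyte markers 1 of 6. Their summed levels ran from 21.1 to 73.1, 0.94 to 13.4 and 4.33 to 13.2 TPM in GFP-negative libraries, from 49.3 to 117, 4.02 to 16.7 and 3.27 to 11.7 TPM in GFP-positive ones, from 43.3 to 60.3, 10.3 to 16.2 and 5.26 to 6.15 TPM in WT cells without dDAVP, and from 46.8 to 68.1, 5.17 to 9.04 and 4.33 to 7.40 TPM with it. Libraries fell into 10 with 17177 to 20250 genes detected and 12 with 23135 to 31292. Both C1 GFP-negative libraries had fewer and both C11 GFP-negative libraries more, and each of the other 8 groups held both kinds. GFP-negative replicate 1 of C50 stood apart. Transcripts of ribosomal proteins made up 7.81% of its total, against 3.64% to 5.81% elsewhere, and its long transcripts were low against its short ones by 0.78 on the log2 scale, where the other libraries ranged from -0.21 to 0.39. Differences between fractions that turn on this library are given with and without it. Other gene lists moved with the main comparisons. The summed level of 15 G2 and M phase genes was 1531 to 1741 TPM without and 925 to 1401 with dDAVP in WT cells, and 1307 to 2252 in GFP-negative against 563 to 973 in GFP-positive libraries. Of 10 immediate early genes 6 were called lower with dDAVP, with summed levels of 23314 to 23966 TPM without and 17599 to 19676 with it, while GFP-positive cells had more of 4 (Fos, Ier2, Jun and Nr4a1) and less of Atf3 past the test, with 11697 to 18663 TPM in GFP-negative and 14457 to 24650 in GFP-positive libraries. The intercalated cell markers Aqp6 and Atp6v1b1 and the proximal tubule marker Lrp2 were called higher in GFP-positive cells. The part of these lists in the results was not tested.

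The members as a whole made up between 0.635% and 0.981% of all transcripts in a library. The glyceraldehyde-3-phosphate dehydrogenase gene Gapdh (mean 1244 TPM over the 22 libraries), the pyruvate kinase gene Pkm (1224), triose phosphate isomerase Tpi1 (971), Ldha (946) and aldolase Aldoa (920) stood highest. Ndrg1, a stress-response gene widely used as a readout of hypoxia, came next at 451 TPM and was the most abundant of the hypoxia genes. At several steps 1 isozyme made most of the transcript counted over the members. Close copies such as Eno1b (66.2 TPM) and non-members such as Eno3 are not in these shares. Hk1 gave 89.9% ± 6.81 (SD, n = 22) of the Hk1 and Hk2 transcript (91.2% ± 2.38, SD, n = 21, without GFP-negative replicate 1 of C50), Aldoa 97.2% ± 0.353 (SD, n = 22) of the Aldoa and Aldoc transcript and Eno1 99.3% ± 0.347 (SD, n = 22) of the Eno1 and Eno2 transcript. Phosphofructokinase, the committing step, was mixed, with 63.0% ± 4.12 from Pfkl, 29.2% ± 4.55 from Pfkp and 7.80% ± 1.58 from Pfkm (SD, n = 22). Pyruvate kinase was mixed too: Pklr, the liver-type gene and not one of the 35, ranged from 182 to 657 TPM beside 835 to 2075 for Pkm. Lactate dehydrogenase was Ldha alone for practical purposes. Ldhb, the isozyme of oxidative tissues, was listed at 0 in 20 of 22 libraries and reached 0.24 and 0.29 TPM in the other two, dDAVP replicates 2 and 3 of WT cells. Export of lactate was likewise one-sided: Slc16a1 averaged 87.6 TPM and Slc16a3, the exporter of strongly glycolytic cells, never exceeded 0.49.

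**Figure D1:**
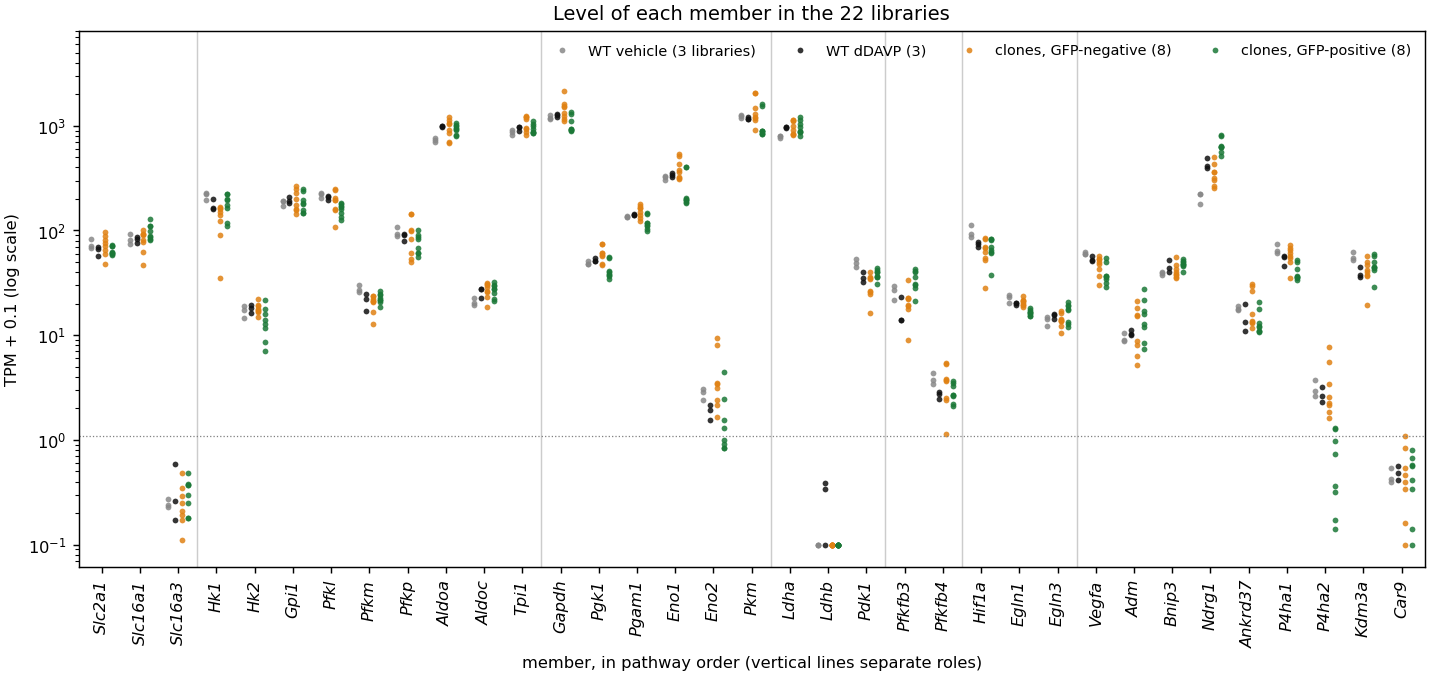
TPM of each of the 35 members (log axis, 0.1 added so that zeros can be drawn) in the 22 libraries, coloured by WT vehicle, WT dDAVP, GFP-negative and GFP-positive, with vertical lines between pathway roles and a dotted line at 1 TPM. Gapdh, Pkm, Tpi1, Ldha and Aldoa lie between 691 and 2147 TPM in all libraries, while Slc16a3, Ldhb and Car9 lie under 1 TPM in all of them.

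Car9, the carbonic anhydrase that rises steeply in hypoxic cells, was also near the floor. It stood at 0.32, 0.44 and 0.30 TPM without dDAVP and 0.31, 0.38 and 0.46 with it. In the clones the lowest, median and highest values were 0, 0.33 and 0.99 TPM in GFP-negative and 0, 0.39 and 0.70 in GFP-positive libraries. These groups overlapped. Car9, Ldhb and Slc16a3 had means under 1 TPM and were not tested, which left 32 members. Among the tested hypoxia genes the levels ran from P4ha2 (mean 2.16 TPM) and Adm (12.7) through Egln3 (14.9), Ankrd37 (16.3), Egln1 (19.2), Bnip3 (43.9), Kdm3a (44.7), Vegfa (46.4) and P4ha1 (51.9) to Hif1a (70.8) and Ndrg1. The ratio of the highest to the lowest group mean was largest in Adm (4.37), Ndrg1 (3.83), Pfkfb3 (2.88) and Eno1 (2.84) and smallest in Bnip3 (1.42), Tpi1 (1.44) and Slc2a1 (1.45) among the tested members, leaving out P4ha2 and Eno2, whose lowest groups averaged under 1 TPM. Without GFP-negative replicate 1 of C50 the ratio of Pfkfb3 was 2.40, behind Ankrd37 (2.65), Hk2 (2.56), Pfkfb4 (2.54), Pfkp (2.52) and Pkm (2.47).

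The first comparison asked what dDAVP did to these genes in WT cells. Ndrg1 rose to about double its level and was by far the member that changed most. Aldoa and Ldha rose by smaller amounts, and Kdm3a, a histone demethylase that HIF-1 induces, fell. The other 28 tested members did not pass the threshold, among them Hif1a, both prolyl hydroxylases, Vegfa and the glucose transporter Slc2a1. All changes are differences of log2(TPM + 1), tested with limma over all 13494 genes tested, and a gene was called when its Benjamini-Hochberg adjusted p was under 0.05.

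Ndrg1 stood at 225, 223 and 178 TPM without dDAVP and at 397, 492 and 413 with it. The groups lay far apart, and the difference was 1.05 on the log2 scale (standard error, SE, 0.121, limma adjusted p 0.0045). Aldoa, the main aldolase, stood at 700, 763 and 724 TPM against 1001, 976 and 995, a difference of 0.44 (SE 0.060, adjusted p 0.0079). Ldha stood at 800.0, 799.9 and 766 TPM against 970.1, 943 and 978, again without overlap, a difference of 0.29 (SE 0.056, adjusted p 0.027). Kdm3a stood at 54.2, 61.8 and 51.7 TPM against 35.9, 44.6 and 37.4, a difference of -0.50 (SE 0.112, adjusted p 0.039). Ndrg1 was called in all 18 alternative settings and Aldoa in 15 of 18, but Ldha in 8 and Kdm3a in 5.

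Of the 13494 genes 8.88% were called, 2.37% higher and 6.51% lower, and 4 of the 32 members (12.5%) were, 3 higher and 1 lower. The groups did not overlap in 14 members (43.8%) and in 35.8% of all genes. The median change of the members was -0.08, where that of all genes was -0.16, so the dDAVP libraries as deposited sat below the vehicle libraries for most genes. Relative to that median, Ndrg1 differed by 1.21, Aldoa by 0.60, Ldha by 0.45 and Kdm3a by -0.34. The split of called genes turned with the scaling: 26.7% were higher in the deposited values, 59.6% after median-ratio scaling and 54.1% after quantile normalization. Under both scalings Aldoc was called higher as well and Kdm3a was not called, and Ldha was not called after quantile normalization. Leaving out dDAVP replicate 2 gave 7 called members and 2038 called genes, and leaving out dDAVP replicate 3 gave 1 member, Ndrg1, and 325 genes. Without dDAVP replicate 1 or any 1 of the vehicle replicates, 2 remained, Aldoa and Ndrg1, with 314 to 460 genes called.

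The transport and entry steps showed no called change. Slc2a1, the basal glucose transporter GLUT1, stood at 81.9, 71.4 and 67.6 TPM without dDAVP and 57.4, 70.1 and 66.6 with it, and the groups overlapped. Hk2, the inducible hexokinase, stood at 18.7, 14.6 and 17.3 against 18.1, 16.3 and 19.2 TPM and overlapped too. Their changes were -0.19 and 0.08 (limma adjusted p 0.28 and 0.66). The 6 genes of the steps from triose phosphates to pyruvate had changes from -0.40 in Eno2 to 0.09 in Pgk1, with adjusted p of 0.23 to 0.51. Pfkfb3, whose product makes the activator of phosphofructokinase, had a change of -0.62, but (SE 0.212, adjusted p 0.10).

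Of the 14 members whose groups did not overlap, 5 lay higher in every dDAVP library, against 7.12% of all genes, and 9 lower, against 28.7% of all genes. The 9 are 28.1% of the members, a share near that background. Not called among the 14 were Aldoc, with a change of 0.31 (limma adjusted p 0.12), and Pgam1, with 0.065 (adjusted p 0.50), on the higher side, and Pfkm, Eno2, Pdk1, Pfkfb4, Hif1a, Egln1, Vegfa and P4ha1 on the lower side. Of the lower ones, Pdk1, Hif1a and Vegfa are given as examples. Pdk1, a pyruvate dehydrogenase kinase, stood at 53.2, 48.5 and 45.1 TPM without dDAVP and 32.0, 40.3 and 35.02 with it, a change of -0.44 (limma adjusted p 0.0502). Hif1a stood at 112, 93.1 and 87.2 against 69.2, 78.2 and 74.6 TPM, a change of -0.39 (adjusted p 0.066). Vegfa, the vessel growth factor, stood at 61.6, 60.1 and 59.7 against 51.3, 56.5 and 52.2 TPM, a change of -0.18 (adjusted p 0.15), which is close to the median of all genes. Once the fit also took in how many genes each library detected, 10 members were called, while the count over all genes went from 1198 to 2694. It added Hif1a, Hk1, P4ha1, Pdk1, Pfkfb3 and Pfkm on the lower side. The S phase and G2 and M phase genes moved in the same samples, with 12 and 9 of 15 called lower.

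**Figure D2:**
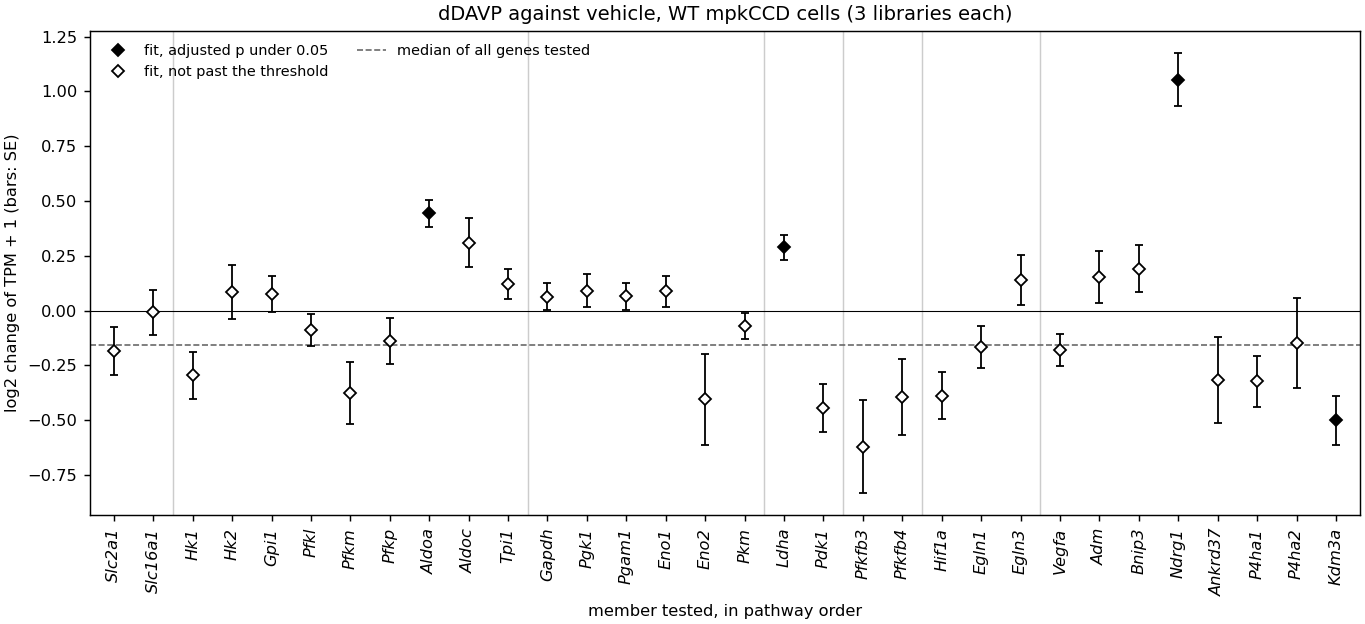
Difference of mean log2(TPM + 1) between dDAVP and vehicle libraries of WT cells (3 each) for the 32 members tested, with bars for the standard error, filled symbols for adjusted p under 0.05 and a dashed line at the median of all genes. Ndrg1 stands alone at 1.05, Aldoa and Ldha are called above the line and Kdm3a below it.

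The second comparison asked how the genes differ between cells of a clone that turned the reporter on and cells that did not, all of them under dDAVP. In GFP-positive cells every one of the 6 genes from triose phosphates to pyruvate was lower: Gapdh, Pgk1, Pgam1, Eno1, Eno2 and Pkm. Of the 9 genes that lead from glucose to triose phosphates, Hk2 was called lower and the other 8 were not called. The hypoxia genes split, with Ndrg1, Adm and Bnip3 higher and Egln1, Ankrd37, P4ha1 and P4ha2 lower. Pfkfb3 was higher and Ldha, Hif1a, Vegfa and Slc2a1 were not called. In all, 15 of 32 members were called, 4 higher and 11 lower, where of the 13113 genes tested 35.3% were called, 12.1% higher and 23.2% lower.

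**Figure D3:**
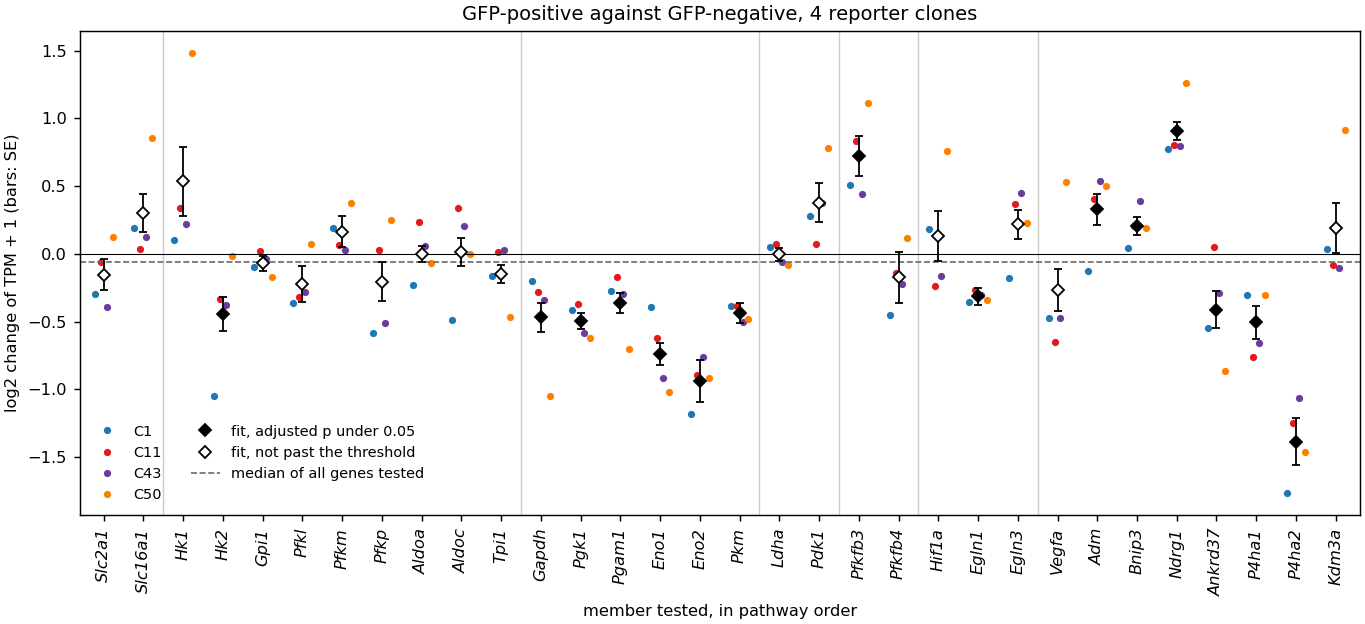
Difference of mean log2(TPM + 1) between GFP-positive and GFP-negative cells for the 32 members tested, as black symbols with standard error from the fit over 16 libraries (filled where adjusted p is under 0.05) and as coloured points for each clone. The 6 genes from Gapdh to Pkm lie below 0 in all 4 clones, while Ndrg1 and Pfkfb3 lie above 0 in all 4.

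Eno1, the main enolase, showed the drop in every clone. GFP-negative libraries held 537 and 515 TPM in C1, 307 and 314 in C11, 377 and 327 in C43, and 364 and 434 in C50. GFP-positive libraries held 403 and 400 TPM in C1, 203 and 201 in C11, 182 and 188 in C43, and 195.3 and 195.7 in C50. Both positive libraries were below both negative ones in each clone, and C1 stayed above the other clones in either fraction. The difference was -0.74 (SE 0.081, limma adjusted p 9.11e-06). Eno2, the neuronal enolase, was scarce and followed the same course. It held 9.23 and 7.94 TPM in C1, 3.00 and 2.28 in C11, 3.42 and 2.03 in C43, and 1.57 and 3.34 in C50 among GFP-negative libraries. The GFP-positive values were 2.33 and 4.32, 0.73 and 1.19, 0.90 and 1.45, and 0.73 and 0.81 TPM in the same order. That is a difference of -0.94 (SE 0.155, adjusted p 0.000288).

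The other 4 enzymes of the lower steps are given by fraction. Gapdh had a lowest, median and highest value of 1121, 1406 and 2147 TPM in the 8 GFP-negative libraries and 889, 939 and 1365 in the 8 GFP-positive ones, a difference of -0.47 (SE 0.107, limma adjusted p 0.0033). Clone by clone, the GFP-positive mean of Gapdh was 0.871 of the GFP-negative mean for C1, 0.824 for C11, 0.791 for C43 and 0.479 for C50, where replicate 1 of the GFP-negative cells was the highest library of all. Without that library the difference was -0.38 (adjusted p 0.0007). Pgk1, phosphoglycerate kinase, had 46.9, 59.5 and 73.9 against 34.5, 39.4 and 56.0 TPM, a difference of -0.50 (SE 0.057, adjusted p 1.41e-05). Pgam1, phosphoglycerate mutase, had 122, 157 and 177 against 97.9, 116 and 145 TPM, a difference of -0.36 (SE 0.072, adjusted p 0.0013). Pkm, pyruvate kinase, had 917, 1257 and 2075 against 835, 898 and 1604 TPM, a difference of -0.44 (SE 0.075, adjusted p 0.00043). Within each clone both GFP-positive libraries were below both GFP-negative ones for all 6 genes of these steps.

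Reads shared with copies of a gene limit 2 of these values. Table entries at least 95% identical to Gapdh over 200 bases or more, 78 in number, together averaged 172 TPM, 12.2% of the sum with Gapdh. The 3 copies of Eno1 averaged 97.4 TPM, 23.2% of the sum, most of it in Eno1b (66.2 TPM). How the counting split such reads is not known. The copies of Eno1 averaged 119 TPM in GFP-negative and 74.8 in GFP-positive libraries, and those of Gapdh 199 and 144 TPM, so the copies were lower in the same fraction as the genes. For Pgk1, Pgam1 and Pkm the copies made up 0.213%, 0.617% and 0.796% of the sum. Pfkp shares sequence with Pitrm1 (86.5 TPM), and its level is uncertain for that reason. Bnip3 had 5 copies that made up 12.5% of the sum.

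In the upper steps the isozymes did not move as a block. Hk2 had a lowest, median and highest value of 14.95, 17.5 and 22.2 TPM in GFP-negative and 6.91, 13.3 and 21.8 in GFP-positive libraries. Within a clone the fractions overlapped in C50 only, and across clones GFP-positive replicate 1 of C11, at 15.96 TPM, also lay above the lowest GFP-negative library, which was replicate 2 of C43. In C1 it stood at 16.4 and 17.4 TPM in GFP-negative and at 8.46 and 6.91 in GFP-positive libraries, and in C11 and C43 the positive libraries also lay below the negative ones. The difference of Hk2 was -0.44 (SE 0.126, limma adjusted p 0.013). Hk1, the constitutive hexokinase that makes up most of the transcript, had a difference of 0.53 (SE 0.257, adjusted p 0.12). Its value in GFP-negative replicate 1 of C50 was 34.9 TPM, against 161 in replicate 2 and 90.8 to 167 in the GFP-negative libraries of the other clones. Without that library the difference of Hk1 was 0.25 and passed the threshold (adjusted p 0.0078).

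Pfkl, Pfkp and Pfkm had differences of -0.22, -0.21 and 0.16 (limma adjusted p 0.21, 0.29 and 0.31). Without GFP-negative replicate 1 of C50, Pfkl and Pfkp were called lower by -0.36 and -0.34 (adjusted p 0.00011 and 0.0061), and the difference of Pfkm was 0.07 (adjusted p 0.52). Aldoa, Aldoc, Gpi1 and Tpi1 had differences of -0.00, 0.01, -0.07 and -0.15, and none was called with or without that library. Aldoa, which rose with dDAVP in WT cells, had a lowest, median and highest value of 691, 974 and 1219 TPM in GFP-negative and 804, 945 and 1054 in GFP-positive libraries, so the fractions overlapped over all clones. Within clones its order differed: the positive libraries lay above the negative ones in C11, below them in C1 and C50, and overlapped in C43. Tpi1 lay at 1240 and 1163 TPM in C50 GFP-negative libraries and at 875 and 864 in C50 GFP-positive ones, and was called within that clone.

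Slc2a1 brings glucose in and did not pass the threshold. It had a lowest, median and highest value of 47.6, 74.0 and 96.7 TPM in GFP-negative and 58.4, 61.9 and 73.4 in GFP-positive libraries, a difference of -0.15 (limma adjusted p 0.33). The lowest of these was GFP-negative replicate 1 of C50, and without it the difference of Slc2a1 was -0.25 (adjusted p 0.018). Slc16a1, the lactate and pyruvate carrier, had a difference of 0.30 (adjusted p 0.11) and of 0.17 without that library (adjusted p 0.069).

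At the fate of pyruvate, Ldha showed no called difference, unlike the enzymes just above it. Its lowest, median and highest values were 825, 957 and 1137 TPM in GFP-negative and 800, 930.0 and 1205 in GFP-positive libraries, and the fractions overlapped. The difference was -0.00 (SE 0.046, limma adjusted p 0.96), and Ldhb was listed at 0 in all 16 clone libraries. Pdk1 had values of 16.2, 30.2 and 40.3 against 30.7, 38.0 and 43.4 TPM, a difference of 0.38 (adjusted p 0.056). Its lowest library was again GFP-negative replicate 1 of C50. Without it Pdk1 differed by 0.24 and was called (adjusted p 0.025).

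Pfkfb3 rose in each clone. GFP-negative libraries held 22.4 and 33.5 TPM in C1, 22.2 and 22.6 in C11, 17.7 and 19.0 in C43, and 8.94 and 19.2 in C50. GFP-positive libraries held 36.1 and 42.98, 40.1 and 41.1, 30.1 and 21.1, and 28.4 and 31.1 TPM in the same order. The lower value of a clone's positive libraries was above the higher of its negative ones in all 4, most narrowly in C1 and C43. The difference of Pfkfb3 was 0.72 (SE 0.149, limma adjusted p 0.0016) and 0.60 without GFP-negative replicate 1 of C50 (adjusted p 0.00023). Pfkfb4, its sister enzyme, had a difference of -0.17 (adjusted p 0.53) and of -0.35 without that library (adjusted p 0.029). In WT cells Pfkfb3 had stood at 29.3, 27.1 and 21.7 TPM without dDAVP and 13.9, 23.2 and 13.7 with it, overlapping.

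Ndrg1 showed the clearest rise of all members. GFP-negative libraries held 433 and 506 TPM in C1, 303 and 316 in C11, 364 and 361 in C43, and 255 and 269 in C50. GFP-positive libraries held 791 and 810 TPM in C1, 519 and 560 in C11, 638 and 623 in C43, and 625 and 631 in C50. Every positive library was above every negative one, across clones as well as within them. The difference was 0.91 (SE 0.069, limma adjusted p 2.57e-07), and it was called in all 33 alternative settings. Ndrg1 was the 1 member called in both the dDAVP and the GFP comparison.

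**Figure D4:**
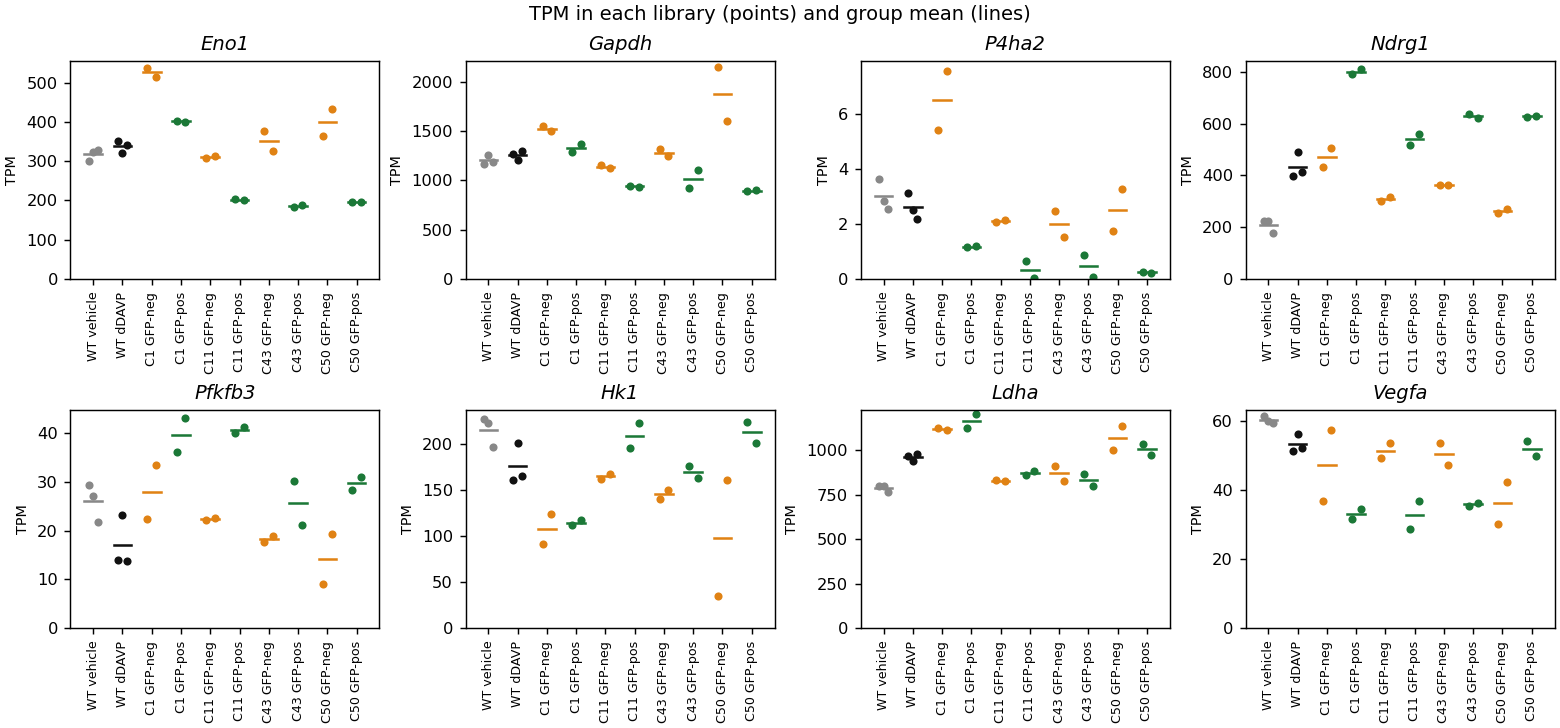
TPM of 8 members in each of the 22 libraries, as points by group with a line at the group mean, on linear axes from 0. Eno1, Gapdh and P4ha2 are lower and Ndrg1 and Pfkfb3 higher in GFP-positive (green) than in GFP-negative (orange) libraries of the same clone, Ldha is not, and the low point of Hk1 is GFP-negative replicate 1 of C50.

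Of Hif1a and its prolyl hydroxylases, Egln1 was called lower and Hif1a and Egln3 were not called. Hif1a had a lowest, median and highest value of 27.9, 64.9 and 84.9 TPM in GFP-negative and 37.4, 67.5 and 82.9 in GFP-positive libraries, a difference of 0.14 (limma adjusted p 0.62). The fractions overlapped, and without GFP-negative replicate 1 of C50, the lowest library, the difference of Hif1a was -0.04 (adjusted p 0.80). Egln1, the main prolyl hydroxylase, had values of 18.6, 20.6 and 23.5 against 15.3, 16.3 and 18.3 TPM. All 8 positive libraries were below all 8 negative ones, and the difference of Egln1 was -0.31 (SE 0.062, adjusted p 0.0011). Egln3 had a difference of 0.22 (adjusted p 0.13), with a ratio of means of 0.875 in C1 and of 1.18 to 1.42 in the other 3 clones.

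Among the hypoxia targets the collagen prolyl hydroxylases P4ha1 and P4ha2 fell. P4ha2 held 5.42 and 7.53 TPM in C1, 2.07 and 2.13 in C11, 2.48 and 1.52 in C43, and 1.74 and 3.28 in C50 among GFP-negative libraries. In the GFP-positive ones it held 1.16 and 1.19, 0.64 and 0.04, 0.87 and 0.07, and 0.26 and 0.22 TPM in the same order. No positive library reached a negative one, and the difference of -1.39 with a standard error of 0.175 was the largest in size among the members (limma adjusted p 2.98e-05). On the scale with 1 TPM added, the change of so scarce a gene is understated. P4ha1 was more abundant, with 54.9 and 72.6 TPM in C1, 57.3 and 65.3 in C11, 60.6 and 50.0 in C43, and 34.9 and 68.1 in C50 among GFP-negative libraries. The positive ones held 50.3 and 51.7, 35.1 and 36.3, 35.7 and 33.5, and 36.2 and 42.8 TPM. Only in C50 did the fractions of P4ha1 overlap, through GFP-negative replicate 1. The difference of P4ha1 was -0.51 (SE 0.125, adjusted p 0.0055), and -0.61 without that library (adjusted p 5.88e-05).

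The remaining targets moved less or in different directions. Bnip3, a mitophagy receptor, had a lowest, median and highest value of 35.2, 39.1 and 55.5 TPM in GFP-negative and 40.2, 47.4 and 52.9 in GFP-positive libraries, a difference of 0.21 (limma adjusted p 0.029). The fractions of Bnip3 overlapped in C1, with a ratio of means of 1.02, and the positive libraries lay higher in C11, C43 and C50. Adm, the vasodilator adrenomedullin, had values of 5.08, 11.9 and 21.1 against 7.27, 14.3 and 27.8 TPM, a difference of 0.33 (adjusted p 0.033). Its fractions overlapped in C1 and were apart, with the positive libraries higher, in C11, C43 and C50. Ankrd37 had a difference of -0.41 (adjusted p 0.028), which was -0.29 without GFP-negative replicate 1 of C50, where it stood at 29.1 against 15.7 TPM in replicate 2. The fractions of Ankrd37 overlapped in C11, with a ratio of means of 1.04, and the positive libraries lay lower in C1, C43 and C50. These 3 calls were the least stable: Adm passed in 17, Bnip3 in 18 and Ankrd37 in 18 of 33 alternative settings. Kdm3a, which was lower with dDAVP in WT cells, had a difference of 0.19 (adjusted p 0.47), and of 0.01 without GFP-negative replicate 1 of C50 (adjusted p 0.93).

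Vegfa went different ways in the clones. It held 37.0 and 57.5 TPM in C1, 49.5 and 53.6 in C11, 53.7 and 47.3 in C43, and 30.1 and 42.5 in C50 among GFP-negative libraries. The GFP-positive values were 31.6 and 34.6, 28.7 and 36.9, 35.6 and 36.3, and 54.3 and 49.9 TPM. The positive libraries were thus below the negative ones in C1, C11 and C43 and above them in C50. The difference over all clones was -0.27 (limma adjusted p 0.21), and the test of whether it differed between clones gave an adjusted p of 0.21. Without GFP-negative replicate 1 of C50 the difference of Vegfa was -0.38 and was called (adjusted p 0.019).

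That library decided much of what could be called. Without it 22 members passed in the comparison of fractions, 6 higher and 16 lower. All 15 called with it were still called, and Hk1 and Pdk1 were added as higher and Pfkfb4, Pfkl, Pfkp, Slc2a1 and Vegfa as lower. Among all genes the count went from 4626 to 6043. With the clone means as replicates 8 members and 2406 of all genes were called (the members Eno1, Eno2, P4ha1, P4ha2, Pgk1 and Pkm lower, Ndrg1 and Pfkfb3 higher), and in the libraries with fewer genes detected alone 1 member, Ndrg1, and 250 genes. In the libraries with more genes detected alone 11 members and 4042 genes were called. The scaling moved the split of calls here too. Of all called genes 34.2% were higher in the deposited values, 50.9% after median-ratio scaling and 50.5% after quantile normalization, and the called members were 4 higher and 11 lower, 8 and 9, and 8 and 10. Each member called between fractions in the deposited values had the same direction in every alternative run for that comparison. The 15 G2 and M phase genes were all called lower in GFP-positive cells and 11 of 15 S phase genes were. The part of cell division in the glycolytic changes was not tested, and in bulk samples fewer cells of a kind and less RNA per cell cannot be told apart.

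Within single clones the calls rest on 2 libraries a side and a spread shared by all 8 clone groups. In C1, 5 members were called where 7.22% of all genes were, and in C11 3 where 7.94% were. In C43, 3 were called where 16.3% of all genes were, and in C50 12 where 26.6% were. Ndrg1 was called higher and Eno1 and Pgk1 were called lower in each of the 4. Hk2 was called in C1, with a difference of -1.05 (limma adjusted p 0.0026), and P4ha2 in C1 and C50, with -1.77 and -1.47 (adjusted p 0.011 for both). In C50 Gapdh, Pgam1, Pkm, Tpi1 and Ankrd37 were called lower and Hk1, Slc16a1 and Pfkfb3 higher. Without GFP-negative replicate 1 of C50 the called members numbered 12 for C1, 10 for C11, 11 for C43 and 11 for C50. Over all genes the same step took the counts from 947 to 2089 for C1, 1041 to 2331 for C11, 2134 to 3891 for C43 and 3486 to 3116 for C50. In C50 1 of these, Ndrg1, was then higher. Fitted on its own 4 libraries, C50 had no called member with limma (8 at an unadjusted p under 0.05) and 22 called genes. The share of all genes at the unadjusted cut is not given here, so the 8 are not read as a result about the members. Leaving out GFP-negative replicate 2 of C50 in place of replicate 1 gave C1, C11 and C43 the same member counts.

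Across the 4 clones, both GFP-positive libraries were on the same side of both GFP-negative ones in 10 of the 32 members, against 18.9% of all genes. These were Ndrg1 and Pfkfb3 on the higher side and Egln1, Eno1, Eno2, Gapdh, P4ha2, Pgam1, Pgk1 and Pkm on the lower. The test of whether the fraction difference varied between clones called no member with limma (9 at an unadjusted p under 0.05) and 0.869% of all genes. The share of all genes at the unadjusted cut is not given here, so the 9 are not read as a result about the members. The lowest adjusted p among the members was 0.097, for Tpi1, followed by 0.10 for Gapdh and 0.14 for Eno1. This test also turned on C50: without GFP-negative replicate 1 it called 1 member, Eno1, and 328 of all genes, and without replicate 2, which leaves replicate 1 to stand for those cells, it called 20 members and 5038 genes, where the full set of libraries gave 114.

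The third comparison asked how the clones differ in level when the fraction is held fixed. With limma 16 of the 32 members differed between clones, where 28.0% of all genes did. C1 had the highest mean level in 14 of the 16, while it was highest in 38.6% of all called genes. Those 14 were Aldoa, Ankrd37, Eno1, Eno2, Gpi1, Ldha, Ndrg1, P4ha2, Pfkfb3, Pfkp, Pgam1, Pgk1, Pkm and Tpi1. C1 was also the lowest clone in 37.7% of all called genes, and in 1 of the 16 members. C11 was the lowest in 9 of the 16, and in 12.2% of all called genes. The other two called members were Adm, highest in C43, and Hk2, highest in C50 and lowest in C1. C1 was singled out after its values were seen.

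**Figure D5:**
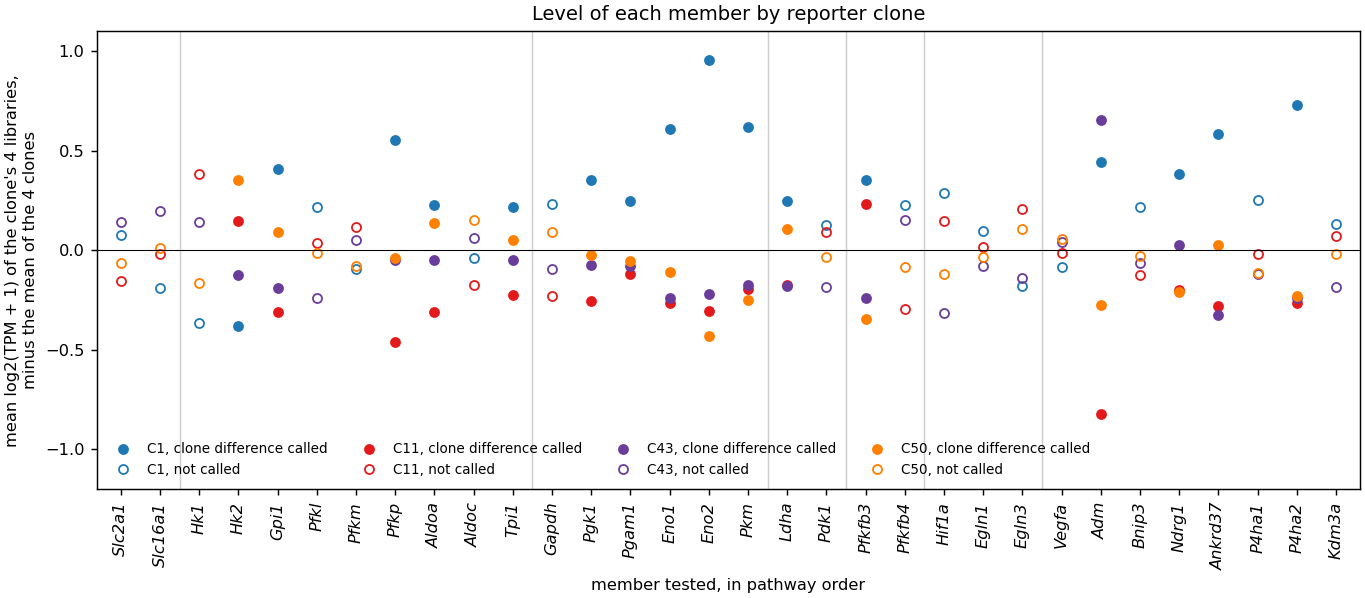
Mean log2(TPM + 1) of each clone's 4 libraries minus the mean of the 4 clones, for the 32 members tested, with filled points where the difference between clones had an adjusted p under 0.05. C1 (blue) is the top point in 14 of the 16 filled members, most widely in Eno2, P4ha2, Pkm, Eno1 and Pfkp, and is the bottom point of Hk2.

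Pkm, the most abundant of the members called and highest in C1, is given first. C1 held 2049 and 2075 TPM in its GFP-negative and 1558 and 1604 in its GFP-positive libraries. The other clones ranged from 917 to 1479 TPM in GFP-negative and from 835 to 901 in GFP-positive libraries, so C1 was above them in both fractions (limma adjusted p 6.43e-05 for the clones). Eno1 in C1 was 515 and 537 against 307 to 434 TPM, and 400.0 and 403 against 182 to 203 TPM. Gpi1, the isomerase of the second step, was 251 and 266 against 145 to 227 TPM, and 237 and 247 against 147 to 193 TPM (adjusted p 4.51e-05). Pfkp was 143 and 144 against 50.3 to 101 TPM, and 89.9 and 101 against 55.3 to 85.9 TPM (adjusted p 0.010). Hk2 went the other way, with 6.91 and 8.46 TPM in the GFP-positive libraries of C1 against 11.5 to 21.8 in the other clones (adjusted p 0.026), while its GFP-negative libraries, at 16.4 and 17.4 TPM, lay within the 14.95 to 22.2 of the others.

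Both C1 libraries lay above those of the other clones in both fractions in 10 of 32 members (31.2%), against 7.76% of all genes. They were Bnip3, Eno1, Eno2, Gpi1, Ndrg1, P4ha2, Pfkp, Pgam1, Pgk1 and Pkm. For Adm the order was C43, C1, C50 and C11, with mean log2(TPM + 1) of 4.40, 4.19, 3.47 and 2.93 (limma adjusted p 2.58e-05). C43 and C1 overlapped in GFP-negative libraries, with 18.1 and 15.1 TPM against 21.1 and 15.5, and were apart in GFP-positive ones, with 21.5 and 27.8 against 17.0 and 15.9. Both GFP-negative libraries of C1 were among those with fewer genes detected. A fit that also took in how many genes each library detected called 17 members and 3725 of all genes between clones. Without GFP-negative replicate 1 of C50 24 members and 5889 genes were called, against 16 and 3669 with it.

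The other genes of these pathways came from 5 lists of 96 genes, of which 73 were tested. With dDAVP 5 of the 73 were called, 1 higher and 4 lower, against 8.88% of all genes (2.37% higher and 6.51% lower). The riser was Hilpda, a lipid droplet protein induced by HIF-1, with 86.9, 97.0 and 99.4 TPM without and 183, 157 and 168 with dDAVP, a difference of 0.84 (limma adjusted p 0.0031). Hif1an, the asparagine hydroxylase that restrains HIF-1, differed by -0.72 (adjusted p 0.029), the liver-type pyruvate kinase Pklr by -0.60 (adjusted p 0.021), the muscle enolase Eno3 by -0.44 (adjusted p 0.049) and the MYC antagonist Mxi1 by -0.42 (adjusted p 0.044).

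Between GFP fractions 28 of the 73 were called, 9 higher and 19 lower. The largest rises were those of the D-lactate dehydrogenase Ldhd (0.81), the pyruvate dehydrogenase kinase Pdk2 (0.80), Hilpda (0.63), the pyruvate dehydrogenase subunit Pdha1 (0.53) and pyruvate carboxylase Pcx (0.53), with limma adjusted p from 2.29e-06 for Hilpda to 0.029 for Pcx. Hilpda thus was called higher in both comparisons, as Ndrg1 was. Pklr was called lower in both, with a difference of -0.73 between fractions (adjusted p 4.77e-05), and is named after its values were seen. Among the largest falls were those of the mTOR inhibitor Ddit4 (-1.76), Tpbg (-1.11), the transcription factor Bhlhe40 (-0.89) and the bisphosphoglycerate mutase Bpgm (-0.85), with adjusted p from 6.46e-06 for Bhlhe40 to 0.0011 for Tpbg. By list, 6 of 14 other glycolysis genes were called (2 higher, 4 lower), 4 of 11 of pyruvate dehydrogenase and the pyruvate carrier (2 and 2) and 4 of 11 of the pentose phosphate pathway and gluconeogenesis (2 and 2). Of the other oxygen-sensing genes 3 of 10 were called, all lower, and of the other hypoxia targets 11 of 27 (3 higher, 8 lower). These shares lie around the 35.3% of all genes.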

How the data were processed

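The authors deposited 1 table of TPM values for 22 RNA-seq libraries, made from SMART-Seq cDNA and Nextera XT libraries per the labels' protocols. The submitters' processing notes name STAR and RSEM; versions, genome build and strand handling are not given in the sources used here. Lines sharing a symbol were summed (Aldoa has 2). TPM keep no depth, so precision comes only from the spread between libraries. Groups followed the sample titles. limma 3.58.1 (R 4.3.3) was fitted to log2(TPM + 1) with a mean-variance trend over all genes with a mean of at least 1 TPM, two-sided, with Benjamini-Hochberg adjustment; a gene was called at an adjusted p under 0.05. The dDAVP fit used the 6 WT libraries, the fraction fit the 16 clone libraries with clone as covariate, and moderated F-tests the interaction and the clone differences. The scripts were tested on simulated data.

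Copies were found with blastn 2.17.0. Members and pathway lists were chosen with earlier results of these data known. Values in every library, or the lowest, median and highest of a fraction's 8 libraries, are given for members called with a change of at least 0.5 and for Slc2a1, Hk2, Ldha, Ldhb, Pdk1, Hif1a, Vegfa and Car9, and other pathway genes are named up to the 5 largest rises and falls, of which 1 is not reported here; Aldoa, Pklr and the genes named for clone C1 were added after their values were seen. Alternatives changed the pseudocount, the filter, the scaling, the trend, robust estimation, a replicate block, a covariate of genes detected and the libraries used. A correction for transcript length and GC content was added after seeing the data.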

Additional observations from a re-analysis of the deposited data

How the results depend on the processing

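No member called for dDAVP, or between fractions over all clones, changed direction in any alternative run; within single clones only counts were recomputed. Of the member changes recomputed, 1479 kept their side of the threshold, 98 lost a call, 47 gained one, and 2 turned direction with a call. Among the 1479, 50 had the other sign, from 14 member changes, without a call in either setting. The 2 were not called in the deposited values and were called after the correction for transcript length and GC content, which was added after seeing the data: Slc16a1 with dDAVP (0.33) and Ldha between fractions (0.11). For dDAVP, 4 members were called, and the count was 2 with any TPM above 0, 2 without the trend, 10 with genes detected as a covariate and 1 in the libraries with more genes detected. The WT libraries with fewer genes detected, 1 a group, could not be fitted. Between fractions, 15 were called, against 1 in the libraries with fewer genes detected and 8 with clone means as replicates. After the length and GC correction 18 members were called between fractions, 9 higher and 9 lower, and 5245 of all genes. In the deposited values the split was 4 higher and 11 lower. Within C1 5 members and 947 genes were called, against 3 and 609 with any TPM above 0 and 3 and 1124 after quantile normalization. Within C11 3 members and 1041 genes were called. Quantile normalization gave 6 members there, with 1184 genes called. Fitting C11 alone raised the members to 7, but the genes called rose to 2029. Correcting for length and GC content also gave 7 members, with 1419 genes called. Within C43 3 members and 2134 genes were called, against 8 and 2312 after quantile normalization and 8 and 2523 with genes detected as a covariate. A fit on C43 alone gave 5 and 1528. The length and GC correction gave 10 and 2624 within C43, with 7 of these members higher and 3 lower. Within C50 12 members and 3486 genes were called, against 0 and 22 in a fit on the clone alone and 20 and 3880 after that correction. In the fit on C50 alone 8 members had an unadjusted p under 0.05 with limma. The share of all genes at that cut is not given here.

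The counts over all genes moved as well. For dDAVP 1198 genes were called, against 442 with any TPM above 0, 691 without the trend, 2694 with genes detected as a covariate, 757 after median-ratio scaling, 789 with the spread of all 22 libraries, 101 in the libraries with more genes detected and 122 with the replicate block. Between fractions 4626 were, against 250 in the libraries with fewer genes detected and 2406 with clone means.

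Leaving out 1 library at a time gave 1 to 7 called members for dDAVP, 12 to 22 between fractions, 2 to 12 within C1, 2 to 10 within C11, 3 to 11 within C43, 6 to 20 within C50, 0 to 20 for the interaction and 13 to 24 between clones. Within C1, C11 and C43 the member counts were the same without replicate 1 as without replicate 2 of the C50 GFP-negative cells. Within C50 the member count was the same without GFP-positive replicate 1 as without GFP-positive replicate 2. A lone library left in a group was taken to vary like the others. Over all genes, leaving out 1 library at a time gave 314 to 2038 called genes for dDAVP and 4170 to 6043 between fractions. Within clones and for the interaction the counts over all genes moved widely too. The ranges are therefore not read as results about the members.

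Same-numbered libraries showed no common tendency to deviate together. Their correlations were -0.208, -0.0254 and -0.109 in WT cells. In the clones they were 0.0582 for C1, -0.0168 for C11, 0.212 for C43 and 0.0827 for C50. With the replicate block 1 member and 122 genes were called for dDAVP, and 6 members and 2399 genes within C43. The block left 12 members and 4259 genes between fractions, 7 and 1062 within C1 and 4 and 1224 within C11. It left 12 and 3840 within C50, 0 and 151 for the interaction, and 17 members between clones. For the interaction 9 members had an unadjusted p under 0.05 with limma, and the share of all genes at that cut is not given here. TPM give no depth, so a limit of detection cannot be stated for Ldhb, Car9 and Slc16a3.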
